A study of Mus musculus with 3 samples.

Results

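The 10 genes described here encode transcription factors of the melanocyte lineage (Mitf, Sox10, Pax3, Sox9 and Tfap2a) and of the epithelial-mesenchymal transition, or EMT (Snai1, Snai2, Zeb1, Zeb2 and Twist1). They are 10 of 18194 named genes on the array, and all 27 probe sets whose single annotated symbol was one of these names were taken, without regard to their values. The samples were melan-a NRAS61K cells, an immortalized line of mouse melanocytes carrying the NRAS61K oncogene, kept with doxycycline at 1 µg/ml for 6, 14 or 28 days, with 1 Affymetrix array per time point and every array from treated cells. The labels do not say which construct responds to doxycycline or whether the line is 1 clone, and no untreated culture was analysed here. Time in culture runs with days of doxycycline and cannot be told apart from it.

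MITF is the central factor of pigment cells. It binds E-boxes in genes of melanin synthesis, melanosome assembly and survival, and PAX3, SOX10 and cyclic AMP signalling act on its melanocyte promoter. In melanocytes SNAI2 and ZEB2 are part of the normal programme, whereas in human melanoma a shift from ZEB2 and SNAI2 to ZEB1 and TWIST1 is known to go with loss of MITF and dedifferentiation. SOX9 and SOX10 are related factors of the neural crest that are often found at opposing levels in melanoma cells.

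The deposited values were quantile normalized and are log2 values by inference from their range, with an unknown constant added, so a level has meaning only against the same probe set on another array. A value was called above background when it exceeded the 90th percentile of a silent set, 104 probe sets for 70 genes of other tissues. This limit was 22.75, 22.58 and 22.81 on the arrays of days 6, 14 and 28. No time point had a second array, so the spread between cultures is unknown and no p-value is given. The only error at hand is the disagreement among probe sets of one gene, whose log2 differences had a pooled within-gene SD of 0.32 for day 28 minus day 6, 0.30 for day 14 minus day 6 and 0.24 for day 28 minus day 14. Below, the first step is day 14 minus day 6, the second step day 28 minus day 14 and the whole course day 28 minus day 6, and a gene called higher or lower in one of them is so at its later day. Each pair of these comparisons shares an array, whose error enters both. The pigment cell identity of the cultures showed in some markers and not in others: Dct, Mlana, Slc45a2 and Tyrp1 were above background on every array, while Tyr, Kit and Trpm1 were below it on every array.

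Of the 27 probe sets, 21 were above background on all 3 arrays and 6 on none. The 6 were the single probe sets of Snai1 and Twist1, 3 of the 4 probe sets of Zeb1 and 1 of the 2 of Mitf. Thus 8 of the 10 genes had a measurable level, and Sox10, Pax3, Sox9, Tfap2a, Snai2 and Zeb2 had it on every probe set. By their brightest probe set, 11973 of all 18194 genes were above background on at least 1 array and 10729 on all 3. With 10 genes the count is a description.

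**Figure D1:**
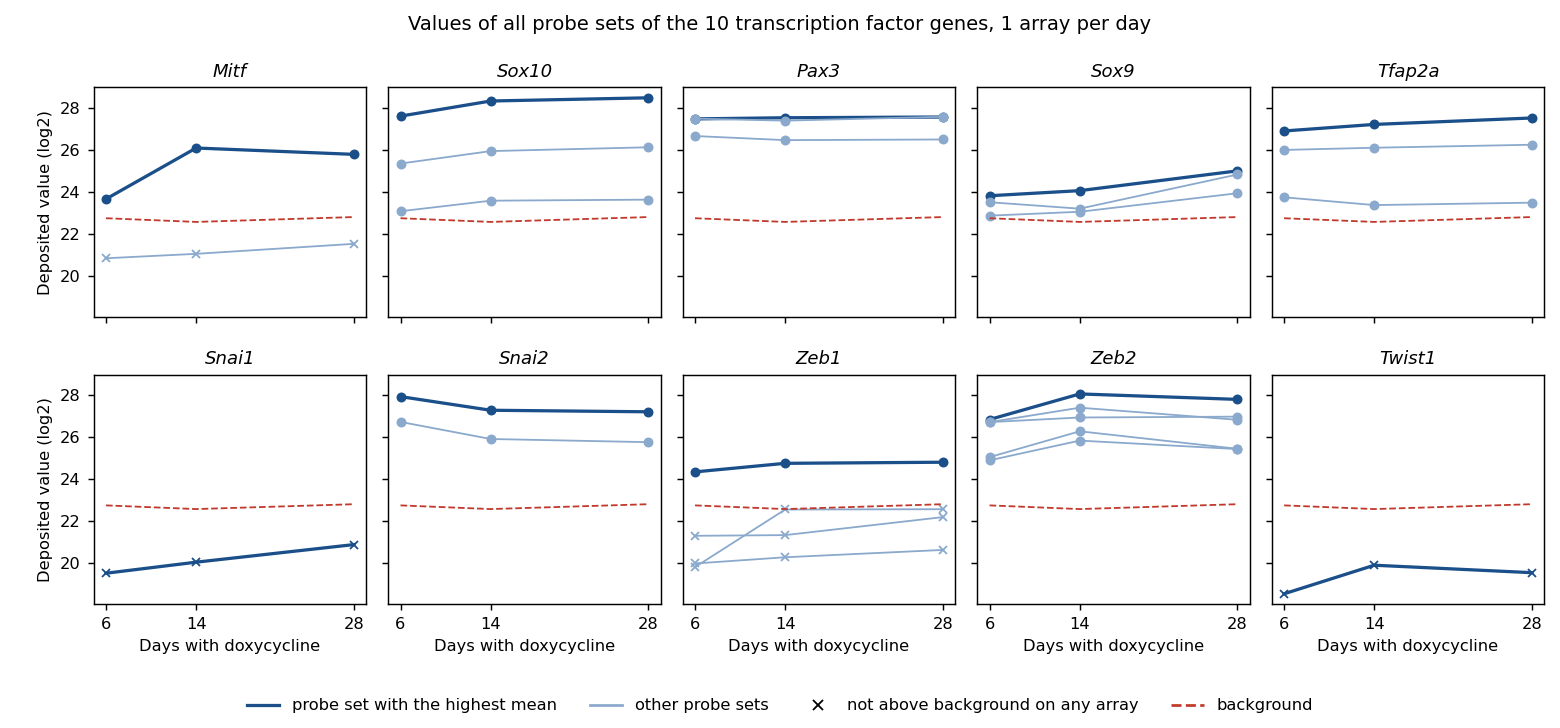
Deposited log2 values (vertical axis) against days with doxycycline (horizontal axis) for every probe set of the 10 genes, 1 array per day. The dark line is the probe set with the highest mean, crosses mark probe sets above background on no array, and the dashed line is the background. Mitf steps up between days 6 and 14, Sox9 between days 14 and 28, Snai2 steps down by day 14, and Snai1 and Twist1 lie below the background throughout.

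Mitf showed the largest difference of the 8 measurable genes in the first step and over the whole course. Its probe set 1455214_at read 23.67, 26.10 and 25.80 at days 6, 14 and 28. It lay 0.92 above background on the day 6 array, 3.53 above it on the day 14 array and 2.99 on the day 28 array. The log2 difference was 2.43 in the first step, or 5.40-fold, and 2.13 over the whole course, or 4.38-fold. In the second step it was -0.30, little more than the probe set SD of 0.24. Ordered by difference, Mitf stood 70th from the top of 11831 genes in the first step and 158th of 11708 over the whole course. The second Mitf probe set, 1422025_at, read 20.84, 21.05 and 21.53 at days 6, 14 and 28, below background each time, so the Mitf result rests on 1 probe set.

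The Mitf gene has 3 start windows in the RefSeq promoter table, each running from 250 bases before a transcript start to 50 after it. The most downstream of them is shown because it holds the cyclic AMP response element through which MC1R signalling is known to act on Mitf. The capitals mark this element, TGACGTCA, a palindrome, 153 bases before the start; the window is chr6:97991533-97991832 on the plus strand of GRCm38.p6.
Mitf: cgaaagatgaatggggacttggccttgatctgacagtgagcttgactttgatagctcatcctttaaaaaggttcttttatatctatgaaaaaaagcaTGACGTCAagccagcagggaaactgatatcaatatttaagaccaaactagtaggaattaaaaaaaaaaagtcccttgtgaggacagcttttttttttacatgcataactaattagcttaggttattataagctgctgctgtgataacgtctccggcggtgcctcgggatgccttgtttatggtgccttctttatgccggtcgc
The element occurs in 1.79% of all 32851 windows in the table and in 1 of the 11 windows of the 5 members listed there, namely this one. The match describes the sequence and shows no binding. Mc1r, the melanocortin receptor gene upstream of cyclic AMP, read 24.85, 25.67 and 26.12 at days 6, 14 and 28. It was 2.42-fold higher over the whole course, and its other probe set above background gave a log2 difference of 0.96. Creb1, which encodes a factor that binds this element, differed by 0.36 in the first step and by 0.27 over the whole course. Lef1, the Wnt pathway partner that acts on the same promoter, differed by 0.48 and 0.51.

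Known MITF targets were described as a list of 27 genes, 26 of them on the array. Values below background were first raised to it. Of the 21 above background on either array, 7 were then at least 2-fold higher in the first step, beside 4.64% of all 11831 genes. None was lower, beside 3.33% of all genes. As measured the counts were 9 and 1, adding Rab27a, Oca2 and Ednrb, beside 5.47% and 3.90% of all genes. The median log2 difference was 0.82 as measured and 0.31 with dim values raised, against -0.03 and -0.05 over all 11831 genes. Over the whole course, 5 of 19 were higher and 0 lower, beside 5.53% and 3.45% of all genes. The median there was 0.34 against 0.01 over all genes. In the second step, 0 of 20 were higher and 5 lower, beside 1.72% and 1.05% of all genes. As measured 6 were lower with Oca2, beside 1.45%, and the median as measured was -0.11 against 0.03. The step down by day 28 was steeper in several targets than in Mitf itself. Dct, which makes a melanin intermediate, read 23.83, 29.17 and 28.03 at days 6, 14 and 28. Mlana, a melanosome protein gene, read 24.25, 29.08 and 28.38. At day 28 Dct was 2.20-fold and Mlana 1.63-fold lower than at day 14, and they stood 18.4-fold and 17.5-fold above day 6. Tyrp1, another melanin enzyme gene, instead read 27.58, 29.67 and 27.47, so day 28 was back at the day 6 level, and its 2 other probe sets gave log2 differences of -2.43 and -2.22 in the second step. Gpr143, a melanosome receptor gene, was 3.31-fold higher in the first step and 2.48-fold lower in the second step. Rab38, which serves transport to melanosomes, behaved likewise, at 3.54-fold and 2.02-fold. Ppargc1a, a coactivator of mitochondrial genes, was 2.37-fold higher in the first step. Not every pigment gene among the targets showed such a step. Pmel, a pigment cell marker above background on every array, read 23.07, 23.38 and 23.05 at days 6, 14 and 28. These values lay near the backgrounds of 22.75, 22.58 and 22.81, which limits what they can show of its course. Gpnmb, another target, differed by 0.53 in the first step and by 0.44 over the whole course. Other targets outside pigmentation differed in both directions in the first step. On the higher side lay the T-box factor gene Tbx2 at 0.84, the survival gene Bcl2 at 0.26, the lysosomal channel gene Mcoln1 at 0.09 and the hypoxia factor gene Hif1a at 0.01. On the lower side lay the DNA repair gene Apex1 at -0.64, the receptor gene Met at -0.55, the cell cycle kinase gene Cdk2 at -0.34 and the formin gene Diaph1 at -0.24. Ednrb, the endothelin receptor gene, was below background at day 14, at least 1.63-fold lower there than at day 6, and 2.74-fold as measured. Rab27a and Oca2 were above background at day 14 only, by less than 0.2. Their day 14 values, 22.59 and 22.73, lay below the day 6 background of 22.75, so no rise can be bounded for them.

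Promoters of 3 pigment enzyme genes are shown because they carry the M-box, the E-box form TCATGTG that MITF is known to bind. The transcripts of Dct and Tyrp1 took different courses, and no course can be read for Tyr. Capitals mark the M-box or its reverse complement, CACATGA. The windows are chr14:118052197-118052496 on the minus strand for Dct, chr4:80833963-80834262 on the plus strand for Tyrp1 and chr7:87493463-87493762 on the minus strand for Tyr, all on GRCm38.p6 from RefSeq.
Dct: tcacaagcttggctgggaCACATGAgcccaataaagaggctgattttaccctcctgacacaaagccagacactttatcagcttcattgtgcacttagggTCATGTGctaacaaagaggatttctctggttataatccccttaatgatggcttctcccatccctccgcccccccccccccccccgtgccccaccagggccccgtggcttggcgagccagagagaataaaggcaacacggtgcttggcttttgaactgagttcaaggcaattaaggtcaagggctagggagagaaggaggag
Tyrp1: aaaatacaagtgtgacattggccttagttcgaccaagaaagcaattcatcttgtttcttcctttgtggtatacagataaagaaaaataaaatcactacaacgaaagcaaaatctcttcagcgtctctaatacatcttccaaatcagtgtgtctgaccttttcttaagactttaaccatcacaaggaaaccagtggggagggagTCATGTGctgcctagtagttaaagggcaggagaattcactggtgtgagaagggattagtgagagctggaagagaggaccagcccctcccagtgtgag
Tyr: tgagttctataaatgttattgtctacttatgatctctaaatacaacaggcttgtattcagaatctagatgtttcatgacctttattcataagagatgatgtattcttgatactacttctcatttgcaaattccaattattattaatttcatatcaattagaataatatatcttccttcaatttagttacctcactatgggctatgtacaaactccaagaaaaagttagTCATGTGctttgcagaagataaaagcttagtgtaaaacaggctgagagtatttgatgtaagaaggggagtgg
Dct holds 2 copies, beginning 232 and 151 bases before the start, Tyrp1 holds 1 at 47 bases and Tyr 1 at 22 bases. The Tyr probe set with the highest mean read 21.94, 22.13 and 21.60 at days 6, 14 and 28 and was below background each time, although its window also holds the M-box. On either strand the M-box was found in 3.77% of all windows and in 8 of 24 windows of the target list, which includes genes that are textbook targets because of this box, so the count is a description. None of the 11 windows of the 5 members held it.

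SOX10 and PAX3 act together on Mitf, and their genes took different courses. The 3 probe sets of Sox10 all read higher at both later days. Probe set 1451689_a_at read 27.62, 28.34 and 28.50 at days 6, 14 and 28, 1424985_a_at read 25.36, 25.95 and 26.14, and 1425369_a_at read 23.08, 23.59 and 23.64. Their log2 differences ran from 0.50 to 0.72 in the first step, from 0.55 to 0.87 over the whole course and from 0.05 to 0.18 in the second step. All 3 probe sets thus read alike, at 1.42-fold to 1.83-fold above day 6, short of 2-fold. The 3 probe sets of Pax3 read 27.49, 27.55 and 27.58, then 27.50, 27.41 and 27.59, and last 26.67, 26.48 and 26.51 at days 6, 14 and 28. No Pax3 difference exceeded 0.20 in size in any of the 3 comparisons, and each lay within the probe set SD. Pax3 was thus above background throughout and showed no step like that of Mitf.

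Genes of the Schwann lineage and known SOX10 targets, a list of 19 with 17 on the array that includes Sox10, had a median log2 difference of 0.72 in the first step, 0.61 over the whole course and -0.26 in the second step. The medians over all genes were -0.03, 0.01 and 0.03 in the same order. In the first step, 4 of 14 were 2-fold higher, beside 4.64% of all genes with dim values raised to background. None was lower, beside 3.33%, since Ednrb, lower as measured, had a bound of 1.63-fold. Erbb3, the neuregulin receptor gene, read 27.66, 29.35 and 29.09 at days 6, 14 and 28. Its difference of 1.69 in the first step exceeded that of Sox10. S100b, a calcium-binding protein gene, was 7.09-fold higher in the first step, and the cadherin gene Cdh19 5.98-fold. Over the whole course, 3 of 14 were higher and 1 lower, beside 5.53% and 3.45% of all genes. The lower gene was the myelin gene Mbp, at least 2.18-fold against background. In the second step, 0 of 13 were higher and 2 lower, beside 1.72% and 1.05% of all genes. The lower genes were Cdh19 at 2.13-fold and the connexin gene Gjc3 at 2.31-fold.

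Sox9 was higher at day 28 than on both earlier arrays. Probe set 1451538_at read 23.82, 24.07 and 25.01 at days 6, 14 and 28. Probe set 1424950_at read 23.51, 23.21 and 24.84, and 1433889_at read 22.87, 23.06 and 23.94. Day 28 was the highest array on each of the 3. Over the whole course the log2 differences were 1.19, 1.32 and 1.07, so all 3 probe sets were at least 2-fold apart, the 1 gene among the members with more than 1 measurable probe set of which this held. In the second step they were 0.94, 1.63 and 0.88, and in the first step they were 0.24, -0.31 and 0.19, where the probe sets disagreed in sign. The day 6 value of 1433889_at lay only 0.12 above background. Sox9 and Sox10 were both higher over the whole course, with no opposition between them on these arrays.

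Cartilage genes that SOX9 is known to drive, 22 with all on the array, were read beside it. Of these, 10 were below background on every array, 6 were above it on all 3, and 6 were below it at day 6 and above it later. The last 6 entered only because they were higher at the later days, so no shift of the list is read from them. Among the 6 above background throughout, 4 were at least 2-fold higher in the first step and 0 lower. In the second step 2 of these 6 were 2-fold lower, and over the whole course 2 were higher. Of all 10729 genes above background throughout, 478 were higher and 359 lower in the first step. In the second step 103 of the 10729 were lower, and over the whole course 529 were higher. Col27a1, a fibrillar collagen gene, read 22.68, 26.93 and 25.53 at days 6, 14 and 28. Cnmd, the chondromodulin gene, read 22.33, 26.15 and 24.40, and Scrg1, a gene first known from scrapie, read 20.71, 24.80 and 23.12. Col27a1, Cnmd and Scrg1 belong to the last 6, lay below background at day 6 and had their highest value at day 14. Col9a2, also of the last 6, read 22.66, 23.61 and 23.91 at days 6, 14 and 28, so it was highest at day 28, as Sox9 was. No order of these genes against Sox9 is read from them, because they entered only through their later days. Against background, Col27a1 was at least 18.1-fold, Cnmd at least 10.5-fold and Scrg1 at least 4.15-fold higher in the first step. Prelp, a matrix proteoglycan gene, was 17.3-fold higher in the first step and differed by -0.13 in the second step. Sox6, which encodes a partner of SOX9 and is also a neural crest gene, was 2.10-fold higher in the first step and 2.08-fold lower in the second step, although its other probe sets above background ran from -0.15 to 1.08 in the first step. Sox5, another partner, differed by 0.59 and -0.69. This list was drawn up with differences of some of its genes already known.

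Tfap2a, an early neural crest factor that works with MITF at pigment genes, gave small differences on which its probe sets disagreed. Probe set 1421996_at read 26.91, 27.23 and 27.53 at days 6, 14 and 28, and 1426048_s_at read 26.01, 26.12 and 26.26. Probe set 1421995_at read 23.75, 23.38 and 23.49, with its highest value at day 6. The differences over the whole course were thus 0.62, 0.25 and -0.26. Of its relatives, Tfap2b read 26.46, 26.19 and 26.96 at days 6, 14 and 28.

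Among the EMT factors, Snai2 and Zeb2, the pair of normal melanocytes, moved apart in the first step. Snai2 encodes SLUG, a repressor needed for melanocyte migration, and it was the 1 member whose probe set with the highest mean was lower on both later arrays than at day 6. Probe set 1447643_x_at read 27.94, 27.29 and 27.22 at days 6, 14 and 28, and 1418673_at read 26.73, 25.92 and 25.77. The first was 1.57-fold lower in the first step and 1.65-fold lower over the whole course, and the second 1.76-fold and 1.95-fold lower. Neither reached 2-fold, and both differed by less than the probe set SD in the second step.

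Zeb2, whose product is needed for melanocyte differentiation and for Mitf expression, was higher in the first step on all 5 probe sets, by very unequal amounts. Probe set 1456389_at read 26.85, 28.07 and 27.81 at days 6, 14 and 28. Probe sets 1454200_at and 1458941_at read 25.05, 26.29 and 25.45, and 24.90, 25.84 and 25.44. Probe set 1422748_at read 26.72, 27.41 and 26.84, and 1434298_at read 26.72, 26.94 and 26.99. The log2 differences in the first step ran from 0.22 to 1.23 with a median of 0.94, and 2 of the 5 were at least 2-fold. Over the whole course they ran from 0.11 to 0.96, and in the second step from -0.84 to 0.04, with 4 of 5 below 0. Day 14 was the highest array on 4 of the 5. The spread among probe sets exceeded the typical SD, and whether they detect different transcripts was not tested.

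Zeb1, the factor found in dedifferentiated melanoma, had 1 measurable probe set. This set, 1418926_at, read 24.35, 24.76 and 24.81 at days 6, 14 and 28, with differences of 0.41 in the first step and 0.46 over the whole course. The other 3 read from 19.81 to 22.57 and were below background on every array. One of them, 1446127_at, read 19.81 at day 6 but 22.56 and 22.57 at days 14 and 28, still at or under the background of 22.58 and 22.81, so no fold is given.

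Snai1, the best known repressor of E-cadherin, read 19.51, 20.04 and 20.88 at days 6, 14 and 28, and Twist1 read 18.53, 19.90 and 19.54. Each value was below background by 1.93 or more, and no difference of theirs can be read. Set beside the shift known from melanoma, Snai2 was lower and Zeb1 0.41 to 0.46 higher at the later days than at day 6, but Zeb2 was higher too, on each of its probe sets, and Twist1 was not measurable on any array.

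**Figure D2:**
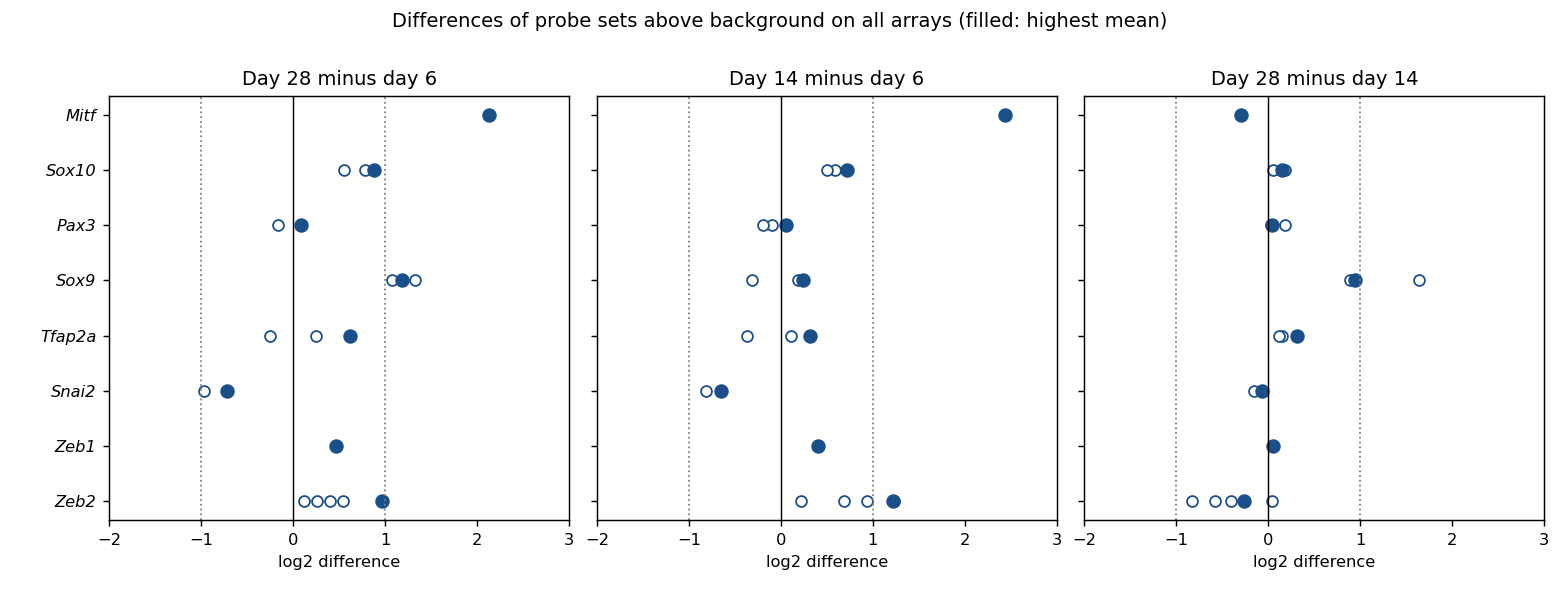
Log2 differences (horizontal axes) of the 21 probe sets above background on all arrays, by gene (vertical axis), for days 28 minus 6, 14 minus 6 and 28 minus 14. Filled points are the probe sets with the highest mean, and dotted lines mark 2-fold. Mitf stands at 2.13 and 2.43 in the first 2 panels, the Sox9 points all lie beyond 1 in the first panel, and the Snai2 points lie below 0 in every panel.

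Counted by the probe set with the highest mean, 2 of the 8 measurable genes, Mitf and Sox9, were at least 2-fold higher over the whole course, where 6.56% of all 11708 genes were. None was 2-fold lower, where 4.05% of all genes were. In the first step, Mitf and Zeb2 were 2-fold higher, again 2 of 8, beside 5.47% of all genes, and 0 were lower beside 3.90%. Averaging all probe sets of a gene left 1 of 7, Mitf, in the first step, with Zeb2 at 0.86. In the second step, 0 were 2-fold higher or lower, beside 2.18% and 1.45% of all genes. With 8 genes these counts are a description. The median log2 difference of the 8 was 0.75 over the whole course against 0.01 over all genes, 0.36 in the first step against -0.03, and 0.04 in the second step against 0.03. With all probe sets averaged the members' median was 0.45 over the whole course and 0.04 in the first step. In the first step and over the whole course 7 of the 8 lay above 0 and Snai2 below it. With the arrays shifted to equal hybridization controls Pax3 differed by -0.03 in the first step, which leaves 6 above 0 there.

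Each of the 3 genes past 2-fold was matched to the genes with the most similar pair of steps, over 3 arrays and 10729 genes above background on all of them. Mitf was closest to Sema6a, a semaphorin gene, at a distance of 0.10 on the log2 scale, and to the ceruloplasmin gene Cp at 0.15, with 3 genes in all within 0.25. Sox9 was closest to Rab7b, a small GTPase gene, at 0.03 and to the mechanosensitive channel gene Piezo2 at 0.04, with 39 within 0.25. Zeb2 was closest to the adhesion molecule gene Cadm4 at 0.01 and to the formin gene Fmnl2 at 0.03, with 123 within 0.25. A pattern of 3 values is shared by many genes, and the distances describe these arrays.

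**Figure D3:**
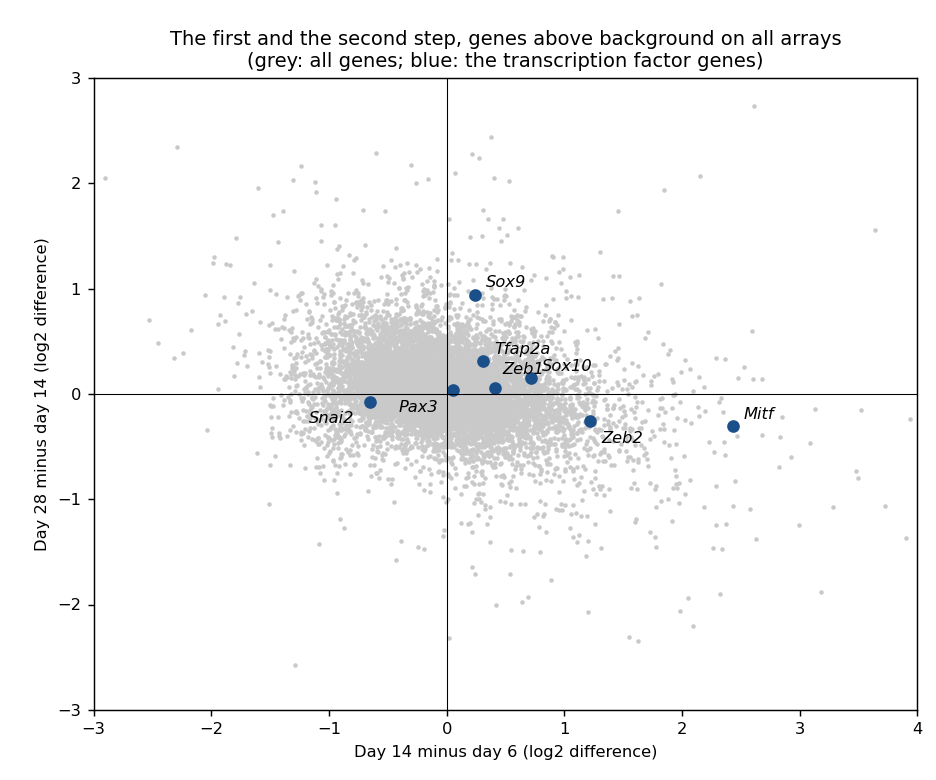
The day 14 minus day 6 log2 difference (horizontal axis) against the day 28 minus day 14 log2 difference (vertical axis) for genes above background on all arrays, with 10723 drawn and 6 outside the axes. Blue points are the 8 measurable factor genes. Mitf lies far to the right at 2.43, Sox9 near the top of the group at 0.94, and Snai2 alone lies to the left at -0.65.

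The effector genes of EMT were described beside the factors. Mesenchymal genes had a median log2 difference of 0.05 in the first step, -0.07 over the whole course and -0.09 in the second step. The medians over all genes were -0.03, 0.01 and 0.03 in the same order. Of 20 measurable genes, 1 was 2-fold higher over the whole course, beside 6.56% of all genes, the protease gene Mmp2 at 2.36-fold. In the same comparison 3 were lower, beside 4.05% of all genes. They were the actin-binding gene Tagln at 4.51-fold, the collagen cross-linking gene Lox at 3.95-fold and the smooth muscle actin gene Acta2 at 2.04-fold. The day 14 and day 28 values of Lox, 22.66 and 23.00, lay close to the backgrounds of 22.58 and 22.81. No other of its 3 probe sets was above background on all arrays. Vim, which encodes vimentin, read 30.18, 30.25 and 30.15 at days 6, 14 and 28, and Fn1, the fibronectin gene, 29.84, 30.24 and 30.10. Cdh2, the N-cadherin gene, read 29.20, 29.43 and 28.73. In the first step, 3 of 20 were higher and 2 lower, beside 5.47% and 3.90% of all genes. The higher genes were the matricellular gene Ccn2 at 3.43-fold, Mmp2 at 2.95-fold and the collagen gene Col3a1 at 2.08-fold. Ccn2 and Col3a1 were lower again in the second step, by 2.74-fold and 2.20-fold.

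Of 25 epithelial genes on the array, 14 were below background on every array. Cdh1, the E-cadherin gene and the best known target of SNAI and ZEB repressors, read 21.89, 24.36 and 22.70 at days 6, 14 and 28, above background at day 14 only. It was at least 3.05-fold higher in the first step, where Snai2 was lower and Zeb2 higher. It was at least 2.93-fold lower in the second step, while Snai2 differed by -0.07 and Zeb2 by -0.26. Cdh1 had 1 probe set. Spint1, a membrane protease inhibitor gene, was 4.01-fold higher in the second step. The medians of the epithelial list were 0.15 over the whole course, -0.05 in the first step and 0.11 in the second step, so no common shift of the list was seen.

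Among other EMT factors, 1 of the 8 measurable reached 2-fold, the proliferation factor gene Foxm1. It was 2.50-fold lower in the first step and 2.82-fold lower over the whole course, where 3.90% and 4.05% of all genes were 2-fold lower. Tcf4, an E-protein that pairs with TWIST1, read 27.96, 28.88 and 28.71 at days 6, 14 and 28, and was 1.89-fold higher in the first step. Hmga2, a chromatin protein gene, was 1.60-fold lower in the first step and 1.48-fold higher in the second step. The median of the 8 measurable genes was 0.17 in the first step, 0.07 over the whole course and -0.04 in the second step. Over all genes these medians were -0.03, 0.01 and 0.03. Of the factors that oppose EMT, 10 of 14 were below background on every array, and Klf5 was 2.85-fold lower over the whole course, while its other probe set above background gave 0.24.

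Among other factors of the MITF family and of melanocytes, 13 of 16 were measurable. Mef2c, a melanocyte and neural crest factor gene downstream of SOX10, read 23.16, 24.99 and 24.71 at days 6, 14 and 28. It was 3.57-fold higher in the first step and 2.94-fold higher over the whole course, and both of its other measurable probe sets gave 1.17 or more in each of these comparisons. Tbx2, an MITF target that represses cell cycle inhibitors, was 2.12-fold higher over the whole course. The MITF relatives Tfe3 and Tfeb differed by -0.45 and 0.05 in the first step and by 0.04 and 0.33 over the whole course, so the large difference of Mitf was not seen in them. Foxd3, a neural crest factor known from chick and zebrafish to repress Mitf, differed by 0.75 in the first step and by 0.74 over the whole course. Of 25 other neural crest factors on the array, 10 were below background throughout. The median of the 15 measurable was 0.38 in the first step, against -0.03 over all genes. With dim values raised to background it was 0.30 against -0.05. In the first step 1 of 15, Sox6, was 2-fold higher, beside 5.47% of all genes. In the second step Sox6 was the 1 gene 2-fold lower, beside 1.45%. Over the whole course only Meis1 was 2-fold higher as measured, beside 6.56%, with a bound of 1.62-fold against background.

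**Figure D4:**
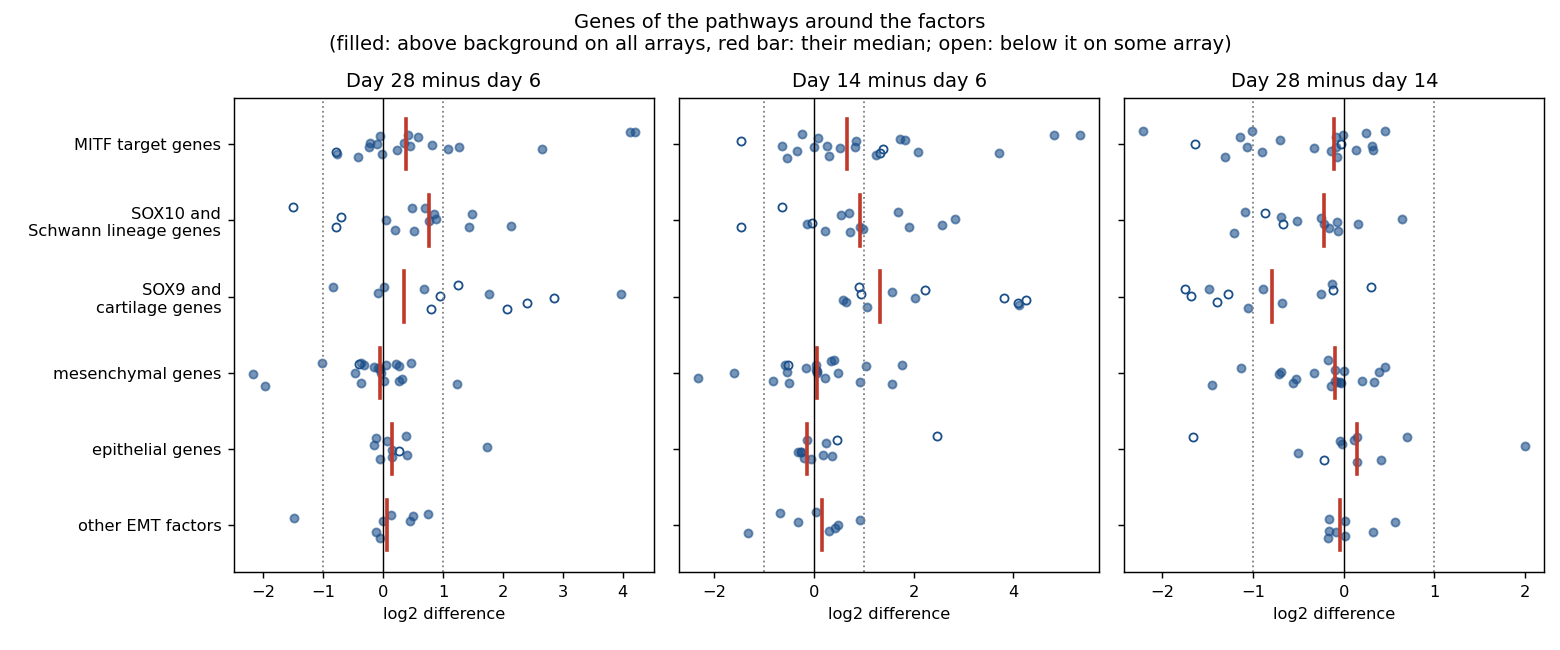
Log2 differences (horizontal axes) of the measurable genes of 6 lists around the factors (vertical axis), for days 28 minus 6, 14 minus 6 and 28 minus 14. Filled points are genes above background on all arrays, red bars their medians, open points genes below it on some array, as measured, and dotted lines 2-fold. The MITF, SOX10 and SOX9 lists have medians of 0.67, 0.93 and 1.32 over 18, 11 and 6 filled points for day 14 minus day 6, and the medians of the mesenchymal, epithelial and other EMT factor lists lie within 0.17 of 0 in every panel.

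Markers of other cell types were read because SOX9, ZEB and SNAI genes are also active outside pigment cells. For scale, 11973 of all 18194 genes were above background on at least 1 array. Of 11 keratinocyte markers on the array, 8 were below background throughout, among them Krt14 and Trp63. Of 11 leukocyte markers 5 were, among them Ptprc. Of 8 endothelial markers, 7 were below background, Pecam1 included, while Cdh5 read 23.70, 25.85 and 27.93 at days 6, 14 and 28. The mean over the 12 fibroblast markers, 6 of them below background on every array, was 22.28, 22.65 and 22.72 at days 6, 14 and 28. Lum, Thy1 and Dpt were below background on every array, while Ogn was highest at day 14 and Pdgfra at day 28, with a 3.06-fold difference for Pdgfra over the whole course. Of the 6 fibroblast markers measurable over the whole course, 3 were 2-fold higher as measured, Pdgfra, Ogn and Dcn, beside 6.56% of all genes. With dim values raised to background 2 were higher, beside 5.53%, since the bound for Dcn was 1.23-fold. The others, Col1a1, Col3a1 and Fap, differed by -0.37, -0.08 and -0.04. Pdgfra was highest at day 28, as Sox9 was, but no other of its 3 probe sets was above background on all arrays. The part of fibroblasts in these differences was not tested. Of the 6 leukocyte markers above background on any array, the macrophage gene Lyz2 was 6.70-fold higher over the whole course, while 4 others, Adgre1, Csf1r, Fcer1g and Laptm5, differed by -0.31 to -0.13. Cd68, the last, was 2.17-fold lower in the first step and 4.03-fold higher in the second step. In the quality probe sets of Actb, the 3' end minus the 5' end was 0.58, 0.76 and 0.75 on the log2 scale at days 6, 14 and 28. For Gapdh it was -0.24, -0.10 and -0.09. Both moved upward with the first step, and the part of this in the differences was not tested. Fewer cells with a transcript and less transcript per cell cannot be told apart in these RNA pools.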

How the data were processed

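Total RNA of melan-a NRAS61K cells was hybridized to 3 Affymetrix arrays, 1 per time point, from biotin-labelled cRNA, per the labels' protocols. The deposited values, 1 for each of 45101 probe sets on every array, are taken as log2 from their range. The sorted columns were identical, so the authors had quantile normalized them. The summarization method and log base are not given in the sources used here. Their range was 1.46 to 30.6 with a median of 22.9, so an unknown constant is included, and folds assume base 2.

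Gene names came from the platform annotation and were updated by gene identifier through a GRCm38.p6 gene table. A single gene was given for 34958, several for 932, and 9211 were not listed. Counts took the brightest probe set of a gene, by its mean, and every probe set of the members is given. Of 79 silent genes listed, 70 were matched. A gene entered a comparison when above background on either array. A fold against a value at or below background is a lower bound computed at the background. A gene was counted at 2-fold, a log2 difference of 1. The named genes were all members, up to 3 genes per direction, list and comparison, and the 2 nearest patterns; other genes were named for their role after their values were seen. The members and lists were chosen with earlier results of these data known. The number of arrays limits the precision. Python 3.11.15, numpy 2.4.6 and pandas 2.3.3 were used. Only the 2-fold call was tried on simulated data. The changes there lay well past the limit and the noise below the probe set SD, so that trial checks the code alone.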

Additional observations from a re-analysis of the deposited data

How the results depend on the processing

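No paired analysis was possible because each time point had 1 array, and no array could be left out of a comparison for the same reason. Of the 7 alternatives, the background at the 75th percentile, the shift to equal hybridization controls, the centring on expressed genes, the raising of dim values and the use of probe sets without a shared-sequence suffix kept every count of 2-fold members and moved each member's difference by less than the probe set SD. The last of these gives no value for Sox10, all of whose probe sets carry such a suffix. Values near 0 changed sign: Pax3 to -0.03 in the first step with the hybridization control shift, and under the centring Pax3 to -0.01 and the members' median to -0.0046 in the second step. Averaging all probe sets of a gene left 7 measurable members, since Zeb1 fell below background with its dim probe sets, and gave 1 gene 2-fold higher between days 14 and 6, with a median of 0.0403, and 1 between days 28 and 14. Mitf then differed by 1.41 between days 28 and 6, by 1.32 between days 14 and 6 and by 0.09 between days 28 and 14, Zeb2 by 0.45 and 0.86 in the first 2 of these and Tfap2a by 0.20 in the first, because dimmer or disagreeing probe sets enter the mean. At 1.5-fold, 5 members were higher and 1 lower between days 28 and 6, beside 15.7% and 12.3% of all genes, 3 were higher and 1 lower between days 14 and 6 beside 13.5% and 14.2%, and 1 was higher between days 28 and 14 beside 7.52%. For the pathway lists, raising dim values to the background and keeping only genes above it on all arrays were added after seeing the data, and they lowered the first-step median of the MITF list to 0.31 and 0.67, against 0.82 as measured.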
